A study of Mus musculus with 8 samples.

Results

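The acrosome is the cap-shaped secretory vesicle that covers the front of the sperm nucleus. Round spermatids build it from the Golgi apparatus, so its soluble enzymes and its membrane proteins are made on the endoplasmic reticulum before they are packed, and its release on contact with the egg coat exposes the membrane that later fuses with the egg. Transcripts for the proteins of this vesicle and for sperm-egg fusion were followed by direct RNA sequencing of whole mouse testes, in which each read is 1 poly(A) RNA molecule and carries an estimate of its poly(A) tail length. The members were every transcript whose symbol is Acr, Acrbp, Acrv1, Zpbp, Zpbp2, Spink2, Spam1 or Eqtn, or begins with Spaca or Izumo, and the rule used no measured value. It found 13 transcripts of 11 genes among the 2783 transcripts and 2243 gene symbols read: Acr, Acrbp (2 transcripts), Acrv1, Izumo2, Spaca1, Spaca3, Spaca4, Spaca7b, Spaca9 (2 transcripts), Spink2 and Zpbp. The other genes of the rule, Zpbp2, Spam1, Eqtn and the remaining Spaca and Izumo genes, were not analysed here.

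The 4 groups were adult male mice with wild-type Tent5c (Tent5c wt/wt, wt) or a catalytically dead allele in both copies (Tent5c dcat/dcat, dcat), each given vehicle or busulfan. Tent5c encodes a cytoplasmic poly(A) polymerase that adds tails to mRNAs of secreted and membrane proteins, and dcat is a knock-in present in every cell, so no Cre or cell-specific promoter limits it. Busulfan is an alkylating drug that depletes dividing germ cells. It was injected once at 20 mg/kg, testes were taken 4 weeks after the injection, and each group had 2 libraries of 1 mouse each, numbered 1 and 2 after the multiplexed sequencing library that held 1 mouse of every group. Levels are given in CPM, the reads of a transcript as a share of its library's total on the usual scale. That total counts only reads on the transcripts kept by the read filter described below. Library totals were scaled by the trimmed mean of M values (TMM), and a read counts 1 molecule whatever the length of the transcript.

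On the transcripts kept by that filter, libraries held 29574 (dcat vehicle, replicate 1) to 129074 reads (dcat vehicle, replicate 2). The members had 1473 reads in all. Tent5c, whose RNA the knock-in is not designed to remove, had 22 to 115 reads in the dcat libraries and 18 to 56 in the wt libraries, so its counts do not check the genotype. Markers of late spermatids (16 genes read, among them Prm1, Tnp1 and Odf1) summed to 93784 to 124969 CPM in the 4 vehicle libraries, as the tissue label implies, and to 7944, 13915 (wt), 21901 and 42057 CPM (dcat) after busulfan. Markers of Leydig cells (10 genes) went from 4202 to 7035 CPM after vehicle to 26049 to 54464 CPM after busulfan, and those of Sertoli cells (9 genes) from 3842 to 5841 CPM to 25039 to 39109 CPM. Spermatocyte markers (6 genes) went from 12478 to 16572 CPM after vehicle to 1518 to 5260 CPM after busulfan, and macrophage markers (3 genes) from 63.9 to 232 CPM to 739 to 1167 CPM. The part of these shifts in the results for the members was not tested. In whole testis, fewer cells of a type and less RNA per cell cannot be told apart.

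The poly(A) tail is added at the 3′ end of the transcript, after a hexamer signal. The last 30 bases are shown for the 3 members with the longest mean tails in wt vehicle testis (Acrv1, Spaca1, Zpbp). Spink2, which had the shortest there, is shown too, as is Spaca9 ENSMUST00000102877. The counts of this Spaca9 transcript were called higher in dcat after busulfan, on few reads and not under every alternative below. The bases are read 5′ to 3′ on the strand of the gene from the GENCODE annotation and genome GRCm38, with the AATAAA signal in capitals.
Acrv1, chr9:36698814-36698843, plus strand: tcttttttgcAATAAAttgctattaaagaa
Spaca1, chr4:34028314-34028343, minus strand: ttatcaaAATAAAatatatattggaaattt
Zpbp, chr11:11279626-11279655, minus strand: tagaagcAATAAActtactttgaaaaactg
Spink2, chr5:77205107-77205136, minus strand: ttcattggAATAAAatgagcattgaattca
Spaca9, chr2:28692080-28692109, minus strand: attcaagAATAAAgtgttctaccacttctc

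In these 5, 14 (Acrv1), 17 (Spaca1, Zpbp, Spaca9) or 16 bases (Spink2) lay between the end of the signal and the annotated end. Of the 13 transcripts, 10 held AATAAA on the transcribed strand in their last 50 bases, against 65.2% of the 2738 transcripts of the table that could be searched. AATAAA or its variant ATTAAA, which can overlap in such a window, was held by 11 of 13, against 79.1% of the 2738, and both Acrbp transcripts had neither. The cytoplasmic polyadenylation element letters TTTTAT were found in the last 100 bases of 0 of 13, against 10.2% of the 2738. Promoters from RefSeq (GRCm38.p6, 250 bases before to 50 after the start) were given for 9 of the 11 genes. TGACG, the short core of the cAMP response element, searched on both strands, was in a promoter of 3 of these 9 (Spaca1, Acrbp, Spaca3), against 36.8% of 1723 genes of the table. The full element TGACGTCA, which contains the core, and the MYB core CAGTTG were in 0 of 9, against 4.18% and 12.5% of the 1723 genes.

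The transcripts lie on 9 chromosomes, and 11 of the 13 are annotated as protein coding, 10 of them with 4 to 8 exons. Spaca4 has 1 exon, chr7:45725107-45725813 on the minus strand, which lies inside the gene Fam83e on the opposite strand. Direct RNA reads keep their strand, but whether the alignment used it is not given in the sources used here. The second Acrbp transcript, ENSMUST00000112412, is annotated as a processed transcript of 2 exons that ends 1 base before the coding transcript ENSMUST00000112414. The 2 Spaca9 transcripts, ENSMUST00000102877 and ENSMUST00000124840, share the start of the last exon and end 4 bases apart. Reads of either pair were assigned to 1 transcript by the aligner, so each split within Acrbp and within Spaca9 is uncertain. The Izumo2 transcript is annotated as a target of nonsense-mediated decay, with its 3′ end at chr7:44719844. Spaca7b is named 1700016D06Rik in GENCODE.

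In both genotypes, all 13 transcripts had lower fitted levels after busulfan than after vehicle. The edgeR test described below called 13 lower in wt and 12 in dcat. Of all 2783 transcripts it called 38.3% and 31.4% lower, before the filter below is taken into account. After vehicle the members together took 274 and 312 reads in wt and 97 and 634 in dcat (replicates 1 and 2), and after busulfan 8 and 24 in wt and 22 and 102 in dcat. As a summed level this was 5307 and 4461 CPM (wt) and 3219 and 5064 CPM (dcat) after vehicle, and 105 and 226 CPM (wt) and 353 and 1108 CPM (dcat) after busulfan. The vehicle libraries of both genotypes lay far above all busulfan libraries, and after busulfan both dcat libraries lay above both wt libraries. Within replicate 1 the sum was 50.7-fold lower after busulfan in wt (95% counting interval 25.4 to 119) and 9.11-fold lower in dcat (5.69 to 15.2). Within replicate 2 it was 19.7-fold (13.03 to 31.3) and 4.57-fold lower (3.70 to 5.69).

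**Figure D1:**
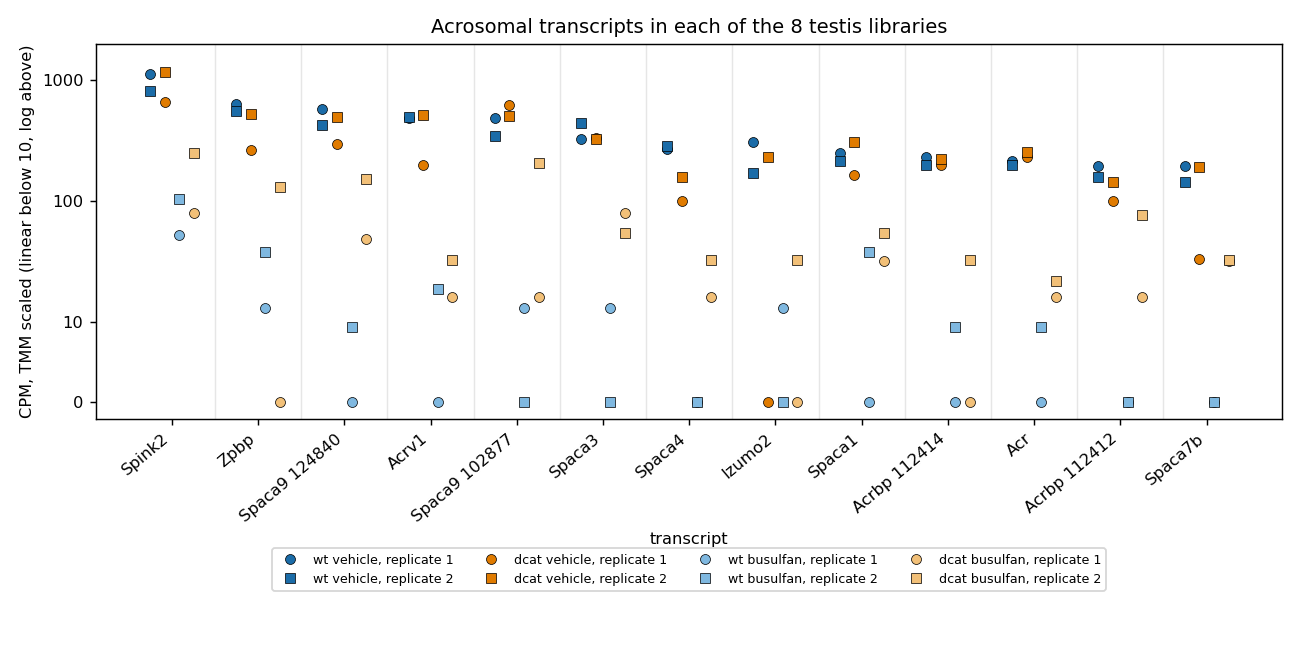
Level of each of the 13 transcripts (x axis) in TMM-scaled CPM (y axis, linear below 10 and logarithmic above) in each of the 8 libraries, with circles for replicate 1 and squares for replicate 2. Most busulfan points, pale blue for wt and pale orange for dcat, lie below the vehicle points of the same transcript, and 3 transcripts are at 0 in both wt busulfan libraries.

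These decreases have to be read against how transcripts entered the table, which took 10 reads or more in each library of some group. All 13 passed that filter in the wt vehicle group, 3 (Spaca3, Spaca9 ENSMUST00000102877 and Spink2) also in the dcat vehicle group, and 0 in either busulfan group. A transcript that passes only through vehicle groups had to be lower elsewhere to miss the filter there. The counts of members called, and of groups that did not overlap, are therefore a description, here and below. The share of all transcripts whose groups did not overlap was not computed. Of all 2783 transcripts, 38.3% were called lower in wt by edgeR's quasi-likelihood test (Benjamini-Hochberg adjusted p under 0.05), and 94.8% of the 898 transcripts that passed through vehicle groups only. The count of 13 of 13 is near that second share and says nothing particular about acrosomal genes. The median log2 fold change of the 13 was -5.31, or -4.87 with the 3 transcripts at 0 set to their bounds, against 0.09 over all transcripts. The filter selects for a low median too. That of the 898 was not computed, so the size of the decrease is not read as particular to the members.

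Few reads for the contents of the acrosome remained in wt busulfan libraries. Acr encodes acrosin, the main protease of the vesicle, and had 11 and 14 reads after vehicle and 0 and 1 after busulfan, so the groups did not overlap. Its pooled rate was 37.6-fold lower (95% counting interval 6.15 to 1542), and the log2 fold change was -4.87 ± 0.84 (SE; adjusted p = 2.15e-05 by edgeR). Acrbp encodes the protein that binds proacrosin and holds it inactive. Its coding transcript had 12 and 14 reads after vehicle and 0 and 1 after busulfan, 39.1-fold lower (6.42 to 1601). Acrv1 encodes SP-10, an antigen of the acrosomal matrix used as a marker of round spermatids. It had 25 and 35 reads after vehicle and 0 and 2 after busulfan, 45.1-fold lower (11.9 to 381), and the log2 fold change was -5.31 ± 0.75 (SE, adjusted p = 2.24e-06).

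Spink2 and Zpbp were the members that kept the most reads in wt. Spink2 encodes a serine protease inhibitor that restrains acrosin while the vesicle forms. It had 58 and 57 reads after vehicle and 4 and 11 after busulfan, or 1123, 815, 52.3 and 104 CPM. Both busulfan values lay below both vehicle values, and the pooled rate was 11.5-fold lower (6.70 to 21.2). The log2 fold change was -3.55 ± 0.52 (SE; adjusted p = 3.16e-06 by edgeR). Zpbp encodes a zona pellucida binding protein of the acrosomal matrix. It had 33 and 39 reads after vehicle and 1 and 4 after busulfan, 21.6-fold lower (8.85 to 68.6), and the log2 fold change was -4.38 ± 0.71 (SE, adjusted p = 1.08e-05).

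Transcripts of Spaca1, Spaca3, Spaca4 and Izumo2 were also lower after busulfan in wt. Spaca1 encodes a protein of the inner acrosomal membrane needed for the shape of the vesicle. It had 13 and 15 reads after vehicle and 0 and 4 after busulfan, and its log2 fold change of -3.32 ± 0.72 (SE; adjusted p = 0.000266 by edgeR) was the smallest of the 13 in wt. Spaca3, which encodes a lysozyme-like protein of the acrosome, had 17 and 31 reads after vehicle and 1 and 0 after busulfan, 72.1-fold lower (12.3 to 2907). Spaca4, a surface protein with a role in binding to the egg coat, had 14 and 20 reads after vehicle and 0 and 0 after busulfan. A count of 0 allows up to 3 reads over the group, so Spaca4 was at least 17.0-fold lower. Izumo2 belongs to the family of Izumo1, the sperm protein that binds the egg receptor Juno. It had 16 and 12 reads after vehicle and 1 and 0 after busulfan, 42.1-fold lower (6.95 to 1720). All 4 were called, as were 94.8% of the transcripts that passed through vehicle groups only. For each, both wt busulfan libraries lay below both wt vehicle libraries, an order that the filter favours.

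Spaca7b had 10 and 10 reads after vehicle and 0 and 0 after busulfan, at least 10.015-fold lower. Spaca9 encodes a protein found inside the microtubules of cilia and flagella. Its transcript ENSMUST00000102877 had 25 and 24 reads after vehicle and 1 and 0 after busulfan in wt, 73.6-fold lower (12.6 to 2966). Its transcript ENSMUST00000124840 had 30 and 30 reads and then 0 and 1, 90.1-fold lower (15.6 to 3619). The Acrbp processed transcript had 10 and 11 reads and then 0 and 0, at least 10.5-fold lower. All 4 were called in wt, as were 94.8% of the transcripts that passed through vehicle groups only. Their groups did not overlap, which the filter favours.

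In dcat testes the decreases after busulfan were smaller in fitted value for all 13 transcripts. The edgeR test called 12 lower, against 31.4% of all 2783 transcripts and 82.3% of the 898 that passed through vehicle groups only. The median log2 fold change of the 13 was -2.45, against 0.14 over all transcripts. That of the 898 was not computed, and the filter favours a low value here as well. Acrv1 had 6 and 65 reads after vehicle and 1 and 3 after busulfan, 17.6-fold lower (6.59 to 66.5), and its log2 fold change of -3.90 ± 0.68 (SE, adjusted p = 0.000122) was the largest decrease. Acr had 7 and 32 reads and then 1 and 2, 12.9-fold lower (4.11 to 65.3). The Acrbp coding transcript had 6 and 28 reads and then 0 and 3, 11.3-fold lower (3.54 to 57.3). For these 3 genes of the acrosomal matrix, both busulfan libraries lay below both vehicle libraries in CPM.

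Spink2 had 20 and 147 reads in dcat vehicle libraries (664 and 1174 CPM) and 5 and 23 after busulfan (80.3 and 250 CPM), 5.93-fold lower (3.95 to 9.19), and the log2 fold change was -2.45 ± 0.47 (SE; adjusted p = 0.000254 by edgeR). Zpbp had 8 and 66 reads and then 0 and 12, 6.13-fold lower (3.31 to 12.4). Spaca1 had 5 and 39 reads and then 2 and 5, 6.24-fold lower (2.79 to 16.4). Both groups stayed apart for these 3 as well. Spaca3 had 10 and 41 reads and then 5 and 5, 5.07-fold lower (2.54 to 11.2), and Spaca4 had 3 and 20 and then 1 and 3, 5.71-fold lower (1.95 to 22.7).

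The least regular members in dcat were Izumo2, Spaca7b and the Acrbp processed transcript, each with few or no reads in the shallowest library. Izumo2 had 0 and 29 reads after vehicle and 0 and 3 after busulfan, and was called lower (9.60-fold, 2.98 to 49.3; adjusted p = 0.00531) although its groups overlapped at 0. The 0 in dcat vehicle replicate 1 allows up to 101 CPM (unscaled) there. Spaca7b had 1 and 24 reads and then 2 and 3, which is 33.2 and 192 CPM after vehicle and 32.1 and 32.6 CPM after busulfan (adjusted p = 0.00869). The Acrbp processed transcript had 3 and 18 reads and then 1 and 7, 2.61-fold lower (1.11 to 6.81), and was the 1 member that did not pass the test (log2 fold change -1.35 ± 0.63, SE; adjusted p = 0.0628 by edgeR). Without dcat vehicle replicate 2, 6 of the 13 were called lower in dcat (Acr, Acrbp ENSMUST00000112414, Acrv1, Spaca3, Spaca9 ENSMUST00000102877 and Spink2), and the fitted values of Izumo2 and Spaca7b turned positive.

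**Figure D2:**
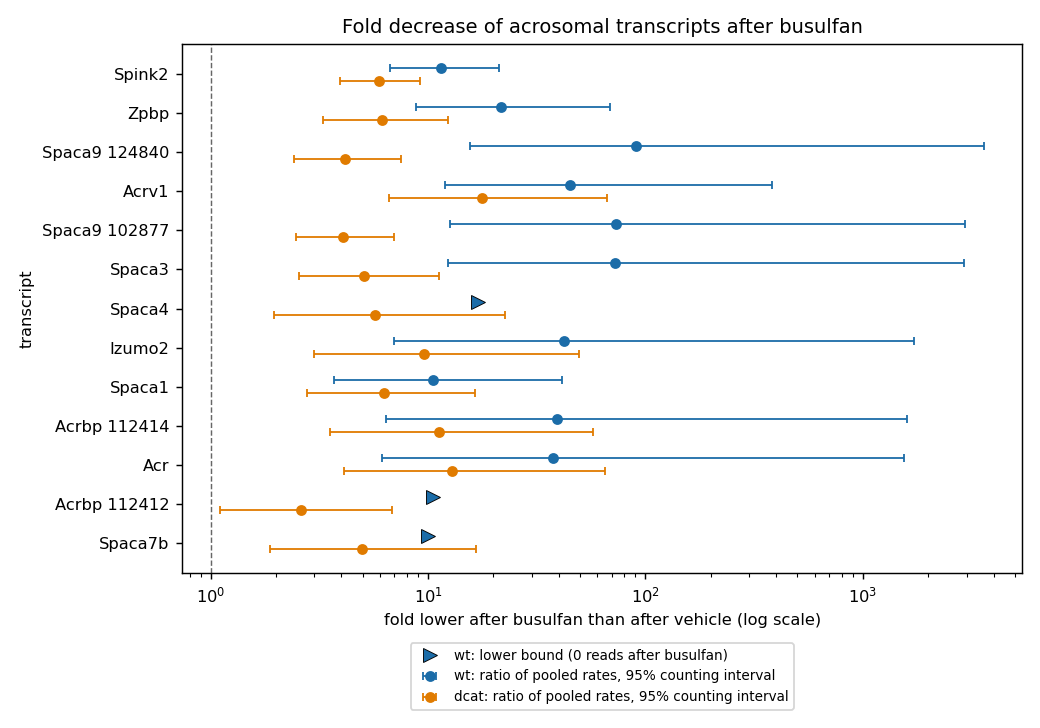
Fold decrease after busulfan (x axis, log scale) for each transcript (y axis), from reads pooled over the 2 libraries of a group over TMM-scaled library totals, with exact 95% counting intervals; blue for wt, orange for dcat. Triangles are lower bounds for the 3 transcripts with 0 reads in wt busulfan libraries. All 10 wt ratios that could be computed lie to the right of the dcat ratio of the same transcript, and 7 of those 10 pairs of intervals overlap (Spaca3 and both Spaca9 transcripts are apart).

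Whether busulfan lowered the members less in dcat than in wt was asked by the interaction of genotype and busulfan. Its fitted value was above 0 for 13 of 13 transcripts, with a median of 1.97 on the log2 scale. All 13 passed the filter in wt vehicle, 3 of them also in dcat vehicle, and none in a busulfan group, and those groups enter this contrast. Of the 839 transcripts that passed the filter in wt vehicle and in no busulfan group, 94.6% had values above 0, with a median of 1.68, so nothing particular to the members is read from their signs. The lowest value was 0.79 (Spaca1), and no upper end is given, since 3 transcripts had 0 reads in wt busulfan and their fitted values depend on how a 0 is handled. The edgeR test called 0 of the 13 (0.323% of all transcripts were called higher). An unadjusted p under 0.05 was found for 6 of the 13 and for 451 of all 2783 transcripts. Its share among transcripts that passed the filter in the same way was not computed. DESeq2 set an adjusted p for 4 of them and called 0. The smallest adjusted p, 0.0584, belonged to Spaca9 ENSMUST00000124840, with a value of 4.18 ± 1.15 (SE). With the replicate number as a block that transcript was called (adjusted p = 0.0249 by edgeR), and it was the 1 member called under the block. Over all 2783 transcripts, 122 were called higher with the block and 9 without it, so nothing particular to this member is read from its call. Fits without 1 library leave 1 mouse in a group, and nothing particular to the members is read from their calls.

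Directly between genotypes after busulfan, 3 of the 13 transcripts were called higher in dcat, against 5.39% of all 2783 transcripts. The share called among transcripts that passed the filter through vehicle groups only was not computed. Spaca9 ENSMUST00000102877 had 1 and 0 reads in wt (13.1 and 0 CPM) and 1 and 19 in dcat (16.1 and 206 CPM). The pooled rate was 23.7-fold higher in dcat (3.79 to 981), and the log2 fold change was 4.13 ± 1.12 (SE; adjusted p = 0.0281 by edgeR). Spaca9 ENSMUST00000124840 had 0 and 1 reads in wt (0 and 9.42 CPM) and 3 and 14 in dcat (48.2 and 152 CPM), 20.1-fold higher (3.15 to 841; adjusted p = 0.0262). The Acrbp processed transcript had 0 and 0 reads in wt and 1 and 7 in dcat (16.1 and 76.1 CPM), at least 3.16-fold higher (adjusted p = 0.0498, and 0.0507 with the replicate block). In each of the 3 the groups did not overlap, but most dcat reads came from replicate 2.

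These 3 calls rested on few reads, most of them from dcat busulfan replicate 2. Without dcat busulfan replicate 2, 0 of the 13 were called, and without either wt busulfan library 0 were called. DESeq2, which set an adjusted p for 6 of the 13, called 0 of them. The markers of late spermatids were also higher in the dcat than in the wt busulfan libraries (21901 and 42057 against 7944 and 13915 CPM), as were those of 3 round spermatid genes outside the members (353 and 706 against 13.1 and 141 CPM), and their part in the difference was not tested.

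The other 10 transcripts did not pass the test between genotypes after busulfan. All 10 fitted values were above 0, beside a median of 0.20 on the log2 scale over all 2783 transcripts. The share of positive values among transcripts that passed the filter in the same way was not computed, so nothing particular is read from these signs. Spaca3 came nearest, with 1 and 0 reads in wt and 5 and 5 in dcat, 11.8-fold higher (1.68 to 514; adjusted p = 0.0713). Spink2, with the most reads, had 52.3 and 104 CPM in wt and 80.3 and 250 CPM in dcat, so that its groups overlapped (2.21-fold, 1.14 to 4.45; adjusted p = 0.324). Zpbp had 13.1 and 37.7 CPM in wt and 0 and 130 CPM in dcat (adjusted p = 0.446). Spaca1 had 0 and 37.7 CPM in wt and 32.1 and 54.3 CPM in dcat, and Acrv1 had 0 and 18.8 CPM and 16.1 and 32.6 CPM. Both overlapped. Without dcat busulfan replicate 2, the fitted values of Spink2, Zpbp, Izumo2 and the Acrbp coding transcript turned negative.

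After vehicle, no member differed between the genotypes by the edgeR test (0 of 13 called, 0.0% of 2783 transcripts called lower, 0 of 13 with an unadjusted p under 0.05). DESeq2 also called 0. Fitted log2 fold changes ran from -0.94 ± 0.46 (SE, Spaca4) to 0.43 ± 0.51 (Spaca9 ENSMUST00000102877), and 8 of 13 were below 0. Spaca4 had 271 and 286 CPM in wt and 99.6 and 160 CPM in dcat, so its groups did not overlap. Its pooled rate was 1.89-fold lower (1.08 to 3.36; unadjusted p = 0.0523 by edgeR). Groups also lay apart for Zpbp and the Acrbp processed transcript, lower in dcat, and for Acr and Spaca9 ENSMUST00000102877, higher in dcat. With 2 libraries against 2 the smallest exact permutation p is 0.333, so groups that lie apart are common. Spink2 had 1123 and 815 CPM in wt and 664 and 1174 CPM in dcat, and its ratio of 1.14 had an interval of 0.891 to 1.45. For Acrv1 (484 and 500 CPM in wt, 199 and 519 in dcat), the rate was 1.08-fold lower with an interval of 0.753 to 1.54. With 2 libraries a group, these intervals cover counting error only. In replicate 1, 10 of 13 were lower in dcat, and in replicate 2, 9 of 13 were higher.

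**Figure D3:**
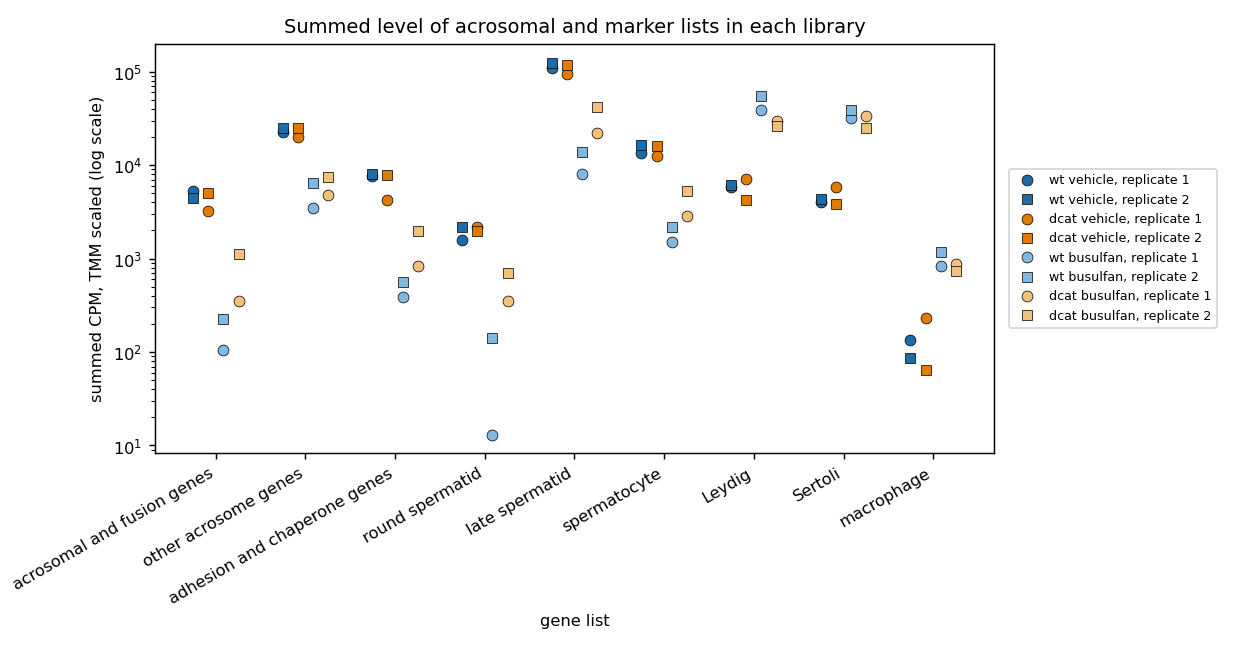
Summed TMM-scaled CPM (y axis, log scale) of the acrosomal and fusion members and of marker and pathway lists (x axis) in each of the 8 libraries, with circles for replicate 1 and squares for replicate 2. The germ cell lists fall from the vehicle (dark) to the busulfan libraries (pale), with both dcat above both wt points after busulfan in all but the list of other acrosome genes, while Leydig, Sertoli and macrophage lists rise.

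Set beside late spermatid markers, the acrosomal members took a smaller share after busulfan. Their summed CPM was 4.89% and 3.57% of the late spermatid sum in the wt vehicle libraries and 3.43% and 4.29% in the dcat vehicle libraries. After busulfan it was 1.32% and 1.62% in wt and 1.61% and 2.64% in dcat, so the 4 busulfan libraries lay below the 4 vehicle libraries. The members had passed the filter only through vehicle groups, so a smaller share after busulfan was partly selected for. Nothing particular to the members is read from it. The share of the other acrosome genes described below went from 20.7% and 19.9% to 43.8% and 45.8% in wt. Smcp is on this list and in the late spermatid sum. Its most read transcript gave 208 of 1160 and 263 of 1738 list reads after vehicle in wt, and 110 of 266 and 315 of 677 after busulfan. Crisp2 gave 97 and 97, then 32 and 71. The rise in wt is therefore not read as one of the list in general. In dcat it was 21.2% and 21.3% after vehicle and 22.1% and 17.9% after busulfan. Round spermatid markers outside the members (3 genes) stood at 1.46% to 2.30% of the late spermatid sum after vehicle, at 0.165% and 1.02% in wt busulfan libraries and at 1.61% and 1.68% in dcat busulfan libraries.

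Other genes of the acrosome and of adhesion to the egg were described in the same way. Of 39 further acrosome genes on a list, 21 were read, and 21 were lower after busulfan in wt and 20 in dcat, with medians of -4.76 and -2.58 on the log2 scale. These counts stand beside 38.3% and 31.4% of all transcripts, and 94.8% and 82.3% of those that passed through vehicle groups only, a filter that selects for high values after vehicle, and nothing particular to the list is read from them. Smcp, which is on this list and on that of late spermatids and encodes a protein of the mitochondrial sheath of sperm, was the most read. Smcp had 208 and 263 reads after vehicle and 110 and 315 after busulfan in wt, a log2 fold change of -0.81 ± 0.34 (SE, adjusted p = 0.0334), and in dcat it was the 1 gene not called (-0.65 ± 0.35, adjusted p = 0.103). Fabp9, a fatty acid binding protein of the acrosomal region, had 151 and 220 reads and then 11 and 24 in wt, and 92 and 445 and then 18 and 85 in dcat. Crisp2, a cysteine-rich protein of the acrosome and tail, had 97 and 97 reads and then 32 and 71 in wt, a log2 fold change of -1.56 ± 0.37 (SE, adjusted p = 0.000617). After busulfan 3 of the 21, against 5.39% of all transcripts, were higher in dcat than in wt (Actl9, Capza3 and Fabp9, the first 2 named after their values were seen), and after vehicle 0 were.

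Of 29 genes for adhesion, fusion and their chaperones in the endoplasmic reticulum, 12 were read. All 12 were lower after busulfan in wt and 9 in dcat, with medians of -4.45 and -2.07, and 2 were higher in dcat than in wt after busulfan, against 5.39% of all transcripts. The shares of all transcripts called lower were 38.3% (wt) and 31.4% (dcat), and 94.8% and 82.3% of those that passed through vehicle groups only. Cmtm2a, needed for the sperm surface protein Adam3, had 76 and 126 reads (wt) and 39 and 207 (dcat) after vehicle, then 4 and 9 (wt) and 7 and 36 (dcat) after busulfan. Lypd4 had 57 and 91 (wt) and 12 and 151 (dcat), then 1 and 6 (wt) and 5 and 12 (dcat). Adam5, a member of the family of Adam3, had 39 and 60 (wt) and 10 and 119 (dcat), then 0 and 5 (wt) and 10 and 21 (dcat). Cmtm2a and Adam5 were the 2 higher in dcat after busulfan (edgeR adjusted p = 0.0473 and 0.0274). The 2 lists share Lypd4 and Prss37.

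Outside these lists, the genes whose level followed the mean of the members most closely over the 8 libraries were Ankrd60, Cep295nl and Spata33, with Pearson correlations of 0.998, 0.995 and 0.995 of log2(CPM + 10). Ankrd60 had 19 and 21 reads (wt) and 6 and 52 (dcat) after vehicle, then 1 and 2 (wt) and 2 and 8 (dcat) after busulfan. Of 2232 candidate genes, 617 had a correlation above 0.9, so such likeness was common, and all these correlations rest on the same 8 libraries, which differ in depth and in the cell type markers above.

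The poly(A) tails of the members were long for this tissue. In wt vehicle testis, where 1475 transcripts reached 10 reads in each library, the mean tail had a median of 148 nt and the 90th percentile 172 nt, and all 13 members lay above the median and 6 above the 90th percentile. Acrv1 had mean tails of 249 and 223 nt (replicates 1 and 2), the second longest of the 1475. Spaca1 had 193 and 216 nt, at rank 4, and Zpbp had 207 and 199 nt, at rank 6. In both libraries each of these 3 exceeded the 90th percentile. Spaca7b followed with 182 and 187 nt (rank 31), then Izumo2 with 181 and 167 nt (rank 121) and Spaca9 ENSMUST00000102877 with 171 and 173 nt (rank 143).

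The means of the other members in wt vehicle testis lay nearer to the median of all transcripts. Acr had 157 and 174 nt, the Acrbp coding transcript 147 and 153 nt, and Spink2 158 and 138 nt, the last at rank 729 of 1475. Spaca3 had 162 and 170 nt and Spaca4 184 and 158 nt. Spaca9 ENSMUST00000124840 had 155 and 155 nt, below the other Spaca9 transcript, but in dcat vehicle libraries it had 146 and 155 nt against 140 and 152 nt for the other, and the split of reads between the 2 is uncertain. Replicates of a transcript could lie far apart (176 and 149 nt for the Acrbp processed transcript), so neighbours in this order are not separated, while Acrv1, Spaca1 and Zpbp stood above Acr, Acrbp, Spaca3 and Spink2 in both libraries.

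**Figure D4:**
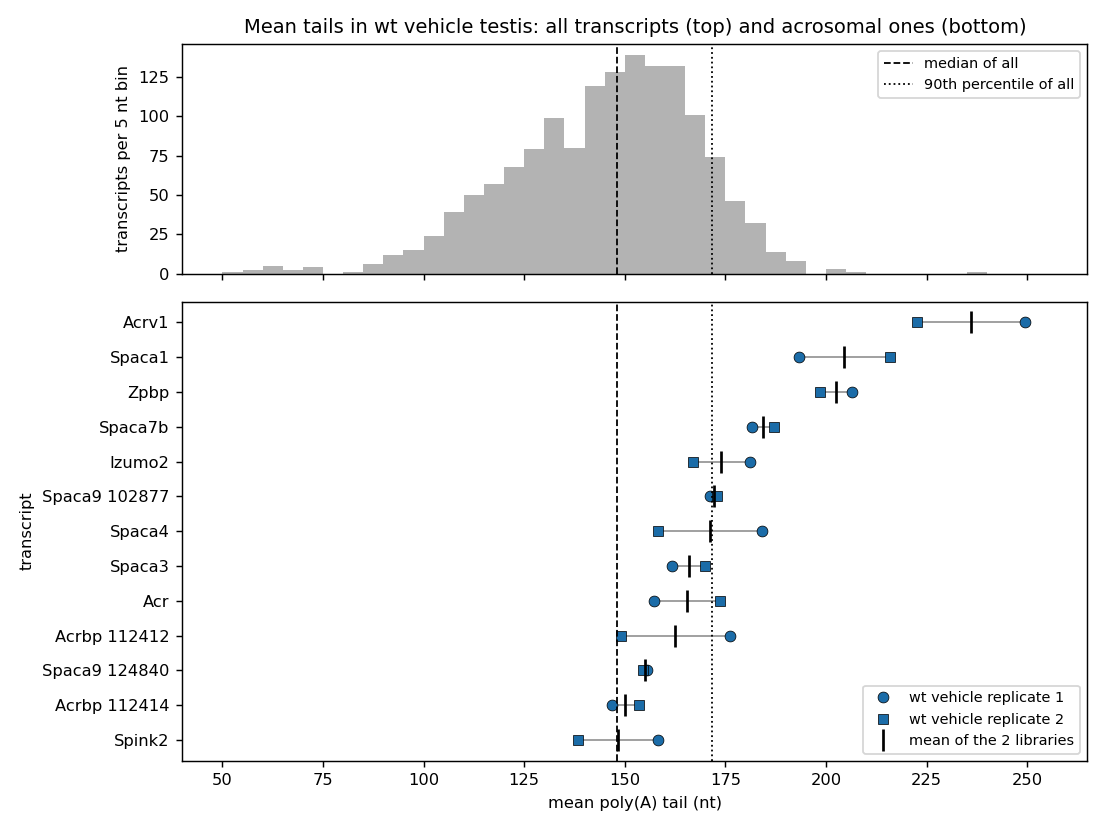
Mean poly(A) tail length in nt (x axis) in wt vehicle testis. The upper panel counts all 1475 such transcripts per 5 nt bin, with their median (148 nt, dashed) and 90th percentile (172 nt, dotted). The lower panel shows each member in replicate 1 (circle) and replicate 2 (square) with the mean as a bar, from Acrv1 at the top to Spink2.

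The long means came from long tails on many molecules. Of 60 Acrv1 reads in wt vehicle libraries, 61.7% had tails of at least 210 nt (Wilson 95% interval 49.0 to 72.9%), as had 53.6% of 28 Spaca1 reads (35.8 to 70.5%) and 45.8% of 72 Zpbp reads (34.8 to 57.3%). Of 115 Spink2 reads 17.4% had such tails (11.6 to 25.3%), and of 60 reads of Spaca9 ENSMUST00000124840 6.67% (2.62 to 15.9%). Spaca9 instead kept 76.7% of those reads between 120 and 210 nt. Over all members, 78 of 274 and 78 of 312 reads of the wt vehicle libraries had at least 210 nt, against 9.14% and 10.1% of all other reads. The longest member tail, 449 nt, was on an Acrv1 read.

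In the dcat vehicle libraries Acrv1 and Spaca1 again had the longest mean tails of the members, and the order of several others changed. In replicate 2, the deeper one, 2051 transcripts had at least 10 reads, with a median of 149 nt, and Acrv1 (209 nt) and Spaca1 (209 nt) were at ranks 6 and 7 and Zpbp (189 nt) at rank 37. Of the 13 members 12 lay above the median, and Spaca4, with 142 nt on 20 reads, lay below it. Over the 13 members the mean tails in wt vehicle and in this library had a Pearson correlation of 0.776 and a Spearman correlation of 0.555, beside 0.797 and 0.676 between the wt replicates. Acr (175 nt) stood above Izumo2 (170 nt) and Spaca7b (166 nt) in this library, and both Spaca9 transcripts (152 and 155 nt) stood below Spink2 (162 nt). Tails of at least 210 nt were on 54.9% of 71 Acrv1 reads (43.4 to 66.0%), 59.1% of 44 Spaca1 reads (44.4 to 72.3%) and 41.9% of 74 Zpbp reads (31.3 to 53.3%) of the dcat vehicle libraries.

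Between dcat and wt after vehicle, 3 members had the 10 reads per library that the tail test required, and 0 of them passed limma's test (1 of 720 transcripts, 0.139%, did), with 1 of the 3 at an unadjusted p under 0.05. The median difference over the 720 was 1.49 nt. Spaca9 ENSMUST00000102877 had 171 and 173 nt in wt and 140 and 152 nt in dcat, so both dcat libraries were shorter, by 26.4 ± 11.05 nt (SE). The unadjusted p was 0.0261 and the adjusted p 0.989 (limma), and 34 of the 720 had an unadjusted p under 0.05. Spink2 had 158 and 138 nt in wt and 170 and 162 nt in dcat, longer by 17.7 ± 8.62 nt (adjusted p = 0.989). Spaca3 had 162 and 170 nt in wt and 170 and 178 nt in dcat, 7.98 ± 12.5 nt apart.

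With the minimum lowered to 5 reads, 9 members entered and 0 passed. Acrv1 was then 33.5 ± 11.97 nt shorter in dcat (249 and 223 nt in wt, 196 nt on 6 reads and 209 nt in dcat), with an unadjusted p of 0.0115 and an adjusted p of 0.992 by limma. Zpbp was 29.1 ± 11.7 nt shorter (207 and 199 nt in wt, 158 nt on 8 reads and 189 nt in dcat; adjusted p = 0.992). For both, all wt libraries lay above all dcat libraries. The Acrbp coding transcript was 18.1 ± 15.4 nt longer in dcat (147 and 153 nt in wt, 169 nt on 6 reads and 168 nt in dcat). Its dcat libraries both lay above its wt libraries. Spaca1 differed by -3.38 ± 14.7 nt, with 193 and 216 nt in wt and 193 and 209 nt in dcat. Of the 9, 3 had an unadjusted p under 0.05 (Acrv1, Zpbp and Spaca9 ENSMUST00000102877). The share over all transcripts at this minimum was not computed.

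**Figure D5:**
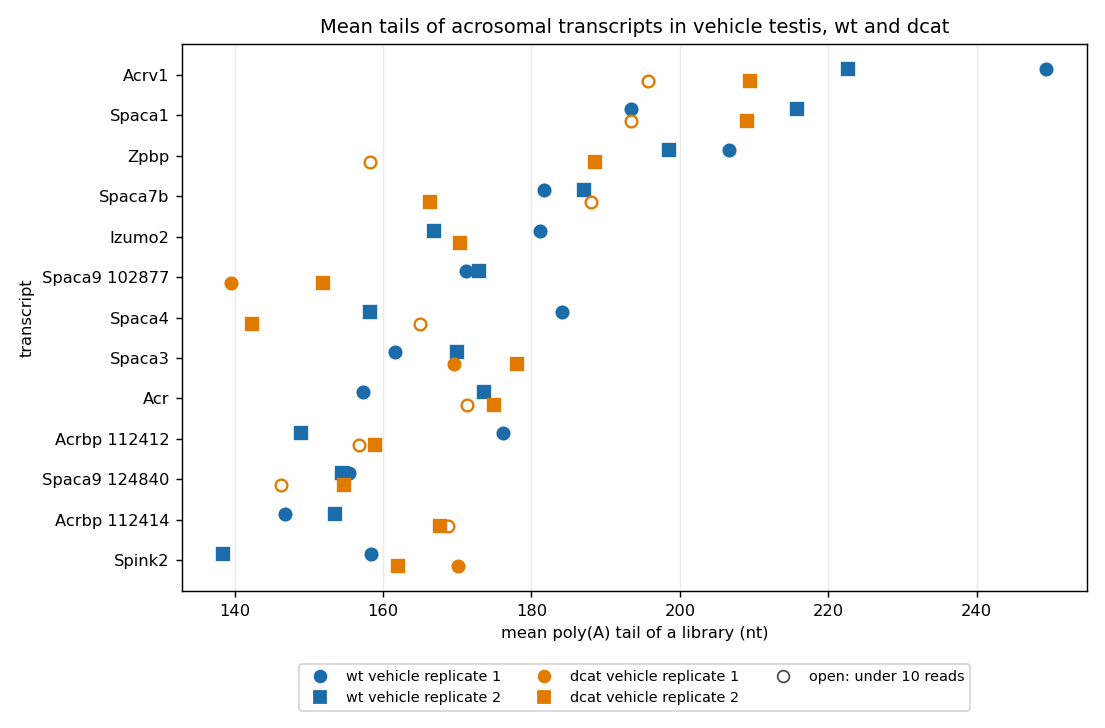
Mean poly(A) tail in nt (x axis) of each member (y axis) in the wt (blue) and dcat (orange) vehicle libraries, with circles for replicate 1, squares for replicate 2 and open symbols for fewer than 10 reads. The 2 dcat points of Acrv1, Zpbp and Spaca9 ENSMUST00000102877 lie left of their wt points. Those of Spink2 and of the Acrbp coding transcript ENSMUST00000112414 lie right of them. Izumo2 has no point in dcat replicate 1, where it had 0 reads.

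After busulfan the members were too few for a tail test, and their tails are described. The mean over all member reads was 148 nt on 8 reads and 157 nt on 24 in wt, and 154 nt on 22 and 148 nt on 102 in dcat, below the 163 to 179 nt of the 4 vehicle libraries. All other reads averaged 111 to 115 nt in the busulfan and 134 to 144 nt in the vehicle libraries, so member reads were longer than the rest of their library in 8 of 8, by 28.3 to 43.0 nt. The mix of members also changed: Spink2, with the shortest tails in wt vehicle, gave 15 of the 32 member reads of wt busulfan testes and 115 of the 586 of wt vehicle testes.

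Spink2 itself had 146 nt on 4 reads and 173 nt on 11 in wt and 140 nt on 5 and 162 nt on 23 in dcat after busulfan, values that overlapped those after vehicle. With a minimum of 5 reads its change after busulfan in dcat was -15.1 ± 12.3 nt (limma adjusted p = 0.461). The median change over the 1052 transcripts in that test was -16.5 nt. That of Spaca3, with 186 and 175 nt after busulfan, was 6.61 ± 15.2 nt (limma adjusted p = 0.805). The values below are not corrected for this general shortening. Zpbp had 125 nt on 12 reads in dcat busulfan replicate 2, against 158 and 189 nt in dcat vehicle libraries. Spaca1 had 173 nt on 2 reads and 160 nt on 5, against 193 and 209 nt. Spaca9 ENSMUST00000102877 was called higher in dcat than in wt after busulfan. It had 144 nt on 1 read of dcat busulfan replicate 1 and 127 nt on 19 reads of replicate 2, against 140 and 152 nt after vehicle. The few Acrv1 reads left after busulfan had 139 nt on 2 reads in wt, and 139 nt on 1 read and 221 nt on 3 in dcat.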

How the data were processed

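Poly(A) RNA from 8 whole testes was sequenced directly on Nanopore R9 flow cells. The deposited count table holds raw read counts per transcript. Per the study's methods and the labels, the authors called bases with Guppy and mapped reads to GENCODE transcripts with minimap2 (2.20-r1061 in the submitters' processing notes, build mm10). Barcodes were split with Deeplexicon, and a transcript needed 10 reads in each library of some group, a rule that 0 of 2783 failed. The deposited table of tail lengths in nt per read (other values, from Nanopolish as run by the authors) held 621202 reads, and it gave the same number of reads as the count table for every transcript and library. The authors also deposited DESeq2 fold changes and adjusted p-values between genotypes, not used here.

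Counts were fitted with edgeR 4.0.16 (R 4.3.3, TMM, all 8 libraries as 4 groups, quasi-likelihood) and mean tails per transcript and library with limma 3.58.1 (eBayes with a trend, at least 10 reads per library). Tests were two-sided and adjusted by Benjamini-Hochberg over all transcripts tested, threshold 0.05, and both fits were tested on simulated data. Fold ratios are of pooled reads with exact 95% intervals, which, like Wilson intervals and the limit of 3 reads for a count of 0, cover counting error only. DESeq2 1.42.0, other scalings, filters and left-out libraries were alternatives. The members and lists were chosen with earlier results of these data known. Each gene is named by its most read transcript, and further transcripts where they differ, with up to 3 genes of a list by reads. Replicate numbers mark the multiplexed library, per the study's methods, so they pair the samples. Over 339 transcripts, deviations of same-numbered libraries correlated at -0.242 to 0.286 for counts and 0.006 to 0.062 for tails. Sequences came from GENCODE vM21 on GRCm38 and RefSeq.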

Additional observations from a re-analysis of the deposited data

How the results depend on the processing

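The count of members called lower after busulfan in wt was 13 under every alternative that tests 13 transcripts, and in dcat it was 13 with RLE scaling, 10 with DESeq2 and 6 to 13 with 1 library left out, where 6 was without dcat vehicle replicate 2. Without that library Izumo2 had a log2 fold change of 3.55 (range over left-out libraries -6.72 to 3.55) and Spaca7b of 0.031 (-2.51 to 0.031). Between genotypes after busulfan, where 3 were called, 0 were by DESeq2, 1 with reads summed per gene (Spaca9), 1 with the 4 libraries compared alone, 2 with the replicate block and 0 to 3 with 1 library left out. Without dcat busulfan replicate 2 the log2 fold changes of the Acrbp coding transcript (-2.09, range to 3.61), Izumo2 (-2.10, to 3.68), Spink2 (-0.015, to 1.701) and Zpbp (-4.10, to 2.37) were reversed. The interaction, with 0 called, had 1 with RLE scaling, 1 with reads summed per gene, 1 with the replicate block (adjusted p = 0.0249) and 0 to 3 with 1 library left out. Over all 2783 transcripts the interaction was called higher for 9 in the main fit, 67 with RLE scaling and 122 with the block. With reads summed per gene it was called higher for 33 of 2311. The block left the counts in both busulfan comparisons and after vehicle at 13, 12 and 0. For the 3 members with a tail test, 0 were called under any alternative, the replicate block included, and no direction changed. DESeq2 called 1018 lower and 642 higher of 2783 transcripts after busulfan in wt, where edgeR called 1067 and 986, and 704 and 391 in dcat, where edgeR called 875 and 871; its median over all transcripts in dcat was -0.07 against 0.14. The causes were not tested, beyond fewer libraries or reads in a fit. Depth limits the busulfan libraries most, with 8 to 102 member reads each.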
